A study of Homo sapiens with 118 samples.

Results

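The highest concentration of mocetinostat (C5, 3.9 µM) was compared with the lowest (C1, 0.177 µM) in HepaRG, a human liver line that can be kept in culture. The comparison rested on 6 libraries, 3 at each concentration, out of 118 in the series, and every row of the count table entered it. Libraries were chosen by their group label alone. The cells were used in the differentiated state although the labels call them liver progenitor cells from a liver tumor associated with chronic hepatitis C. They were kept in culture for 7 days before the exposure. All groups were exposed for 72 h, and the chemical was renewed every day, at 0, 24 and 48 h. Replicates 1, 2 and 3 of each group came from different batches of HepaRG cells, so the 3 libraries of a group are 3 cell batches of 1 line and their spread covers no other donor. The intermediate concentrations C2 (0.532 µM), C3 (1.595 µM) and C4 (2.5 µM), with 3 libraries each, were used for the course of the response. The C1 and C5 groups of tacedinaline (1.143 and 44 µM) and apicidin (0.0417 and 0.86 µM), from the same 3 cell batches, were used for contrast. Cells without an inhibitor were not analysed here, so C1 was the reference throughout and a change complete at 0.177 µM would not be seen.

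Mocetinostat is a benzamide that inhibits class I histone deacetylases, chiefly HDAC1, HDAC2 and HDAC3, and the class IV enzyme HDAC11. These enzymes remove acetyl groups from lysines of histones and other proteins, and most of them act inside large corepressor complexes. Inhibition lets acetylated histones accumulate, and genes both rise and fall. Differentiated HepaRG cultures hold hepatocyte-like and biliary-like cells, express liver secretory proteins, transporters and drug-metabolising enzymes, and are used to test chemicals for that reason. The transcripts of these cells were counted with TempO-Seq. Its detector probes anneal side by side to a target RNA, are joined by ligation, and are then amplified and sequenced. A feature here is 1 probe pair, written as gene symbol where a single probe is meant, and its level is given in CPM, counts brought to a common library size. Levels of different probes are not comparable with each other, so each was compared only with itself.

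Total counts of the 15 mocetinostat libraries ranged from 3045318 to 5220707, with C1 at 4023177 to 5220707 and C5 at 3045318 to 3704165. Some of these libraries stood apart from their group mates. Over 9073 features, replicates 1 and 2 of C2 correlated at 0.745 and 0.840 with replicate 3 but at 0.957 with each other. Replicate 1 of C3 correlated at 0.851 and 0.871 with its mates, which correlated at 0.971. In C1 and C5 all correlations lay between 0.947 and 0.972. The feature of PSMA3, a proteasome subunit chosen after its values were seen, had 3.81 and 12.7 CPM in replicates 1 and 2 of C2, 45.0 CPM in replicate 1 of C3, and 347 to 559 CPM in the other libraries of C2 to C5. In C1 it had 284, 401 and 157 CPM, so that replicate 3 of C1 departed in the same direction to a smaller extent. Results are therefore also given without replicate 3 of C1 and without the 3 libraries of C2 and C3. What set these libraries apart was not tested.

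Of 22068 features, 13065 passed the filter on low counts and were tested with edgeR's quasi-likelihood test. A feature was called where the adjusted p-value (Benjamini-Hochberg) lay below 0.05 together with a fold of 1.5 or more. Between C1 and C5, 3983 features (30.5%) were called, 1934 rising (14.8%) and 2049 falling (15.7%). The falls were deeper than the rises, with a median log2 change of -1.92 in falling and 1.47 in rising features, against 0.08 over all features tested. A change of 8-fold or more was measured in 562 falling and 272 rising features. All 3 batches moved the same way in 2042 of the falling and 1919 of the rising features. The C5 and C1 libraries did not overlap in 99.2% of the falling and 98.2% of the rising features, compared with 52.1% of all features tested. The calls were made on these same libraries, so shared direction and separation of called features follow largely from the selection and are a description only. Features without reads at C1 could pass the filter through C5 alone, and 126 rising features lay at the floor at C1, which means 3 counts or fewer in each of its libraries. Another 176 falling features lay at the floor at C5. A fold against such a group is a lower bound computed from 3 counts, and bounds of this kind cover counting error only. The p-values rest on the spread between batches over all 15 mocetinostat libraries, those of C2 and C3 included.

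The composition of the libraries changed with the concentration. Falling features held 40.8% to 43.0% of all counts in the C1 libraries and 11.8% to 11.9% in the C5 libraries. Rising features held 10.7% to 11.5% at C1 and 30.7% to 31.2% at C5. The 10 features with most counts took 13.3%, 12.6% and 11.6% of the C1 libraries and 4.92%, 5.44% and 5.06% of the C5 libraries. In these lysates fewer cells of a type and less RNA per cell cannot be told apart, and CPM are shares of the RNA measured and not amounts per cell. The number of rising features was 1401 without replicate 3 of C1 and 2604 without the 3 libraries that stood apart, and the number of falling features was 1677 and 2790. Without batch 2, rising and falling features numbered 738 and 1034. All 1934 rising and 2049 falling features kept their sign without replicate 3 of C1, and 1343 and 1646 of them were called.

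**Figure D1:**
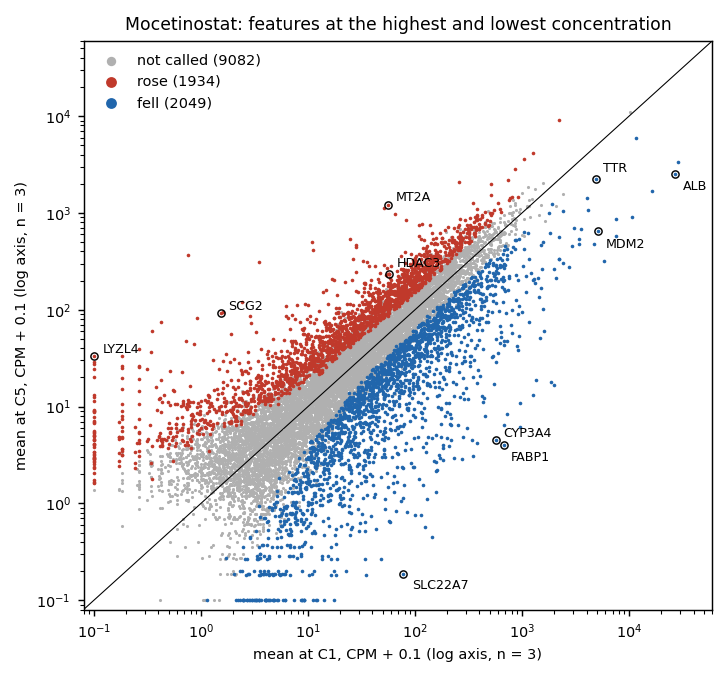
Mean level of each tested feature at C1 (horizontal) and C5 (vertical), in CPM plus 0.1 on log axes, 3 libraries per mean. Red features rose, blue features fell, grey features were not called, and the line marks equal levels. The cloud of falling features reaches farther from the line than that of rising features, with FABP1, CYP3A4 and SLC22A7 far below it.

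The largest relative rises were of features that were absent or near absent at C1. LYZL4, a lysozyme-like gene, had 0 counts in all C1 libraries and 30.6, 41.5 and 27.0 CPM at C5, and was at least 46.8-fold higher (adjusted p = 1.01e-04). DENND1C, an activator of Rab GTPases, went from 0 counts to 24.5, 35.1 and 26.4 CPM, and S100A7, a calcium-binding protein of epithelia, from 0 counts to 29.1, 30.1 and 24.0 CPM. SEMG2, a protein of seminal plasma, and GAST, the precursor of the stomach hormone gastrin, also had 0 counts at C1 and were at least 34.7-fold and 28.8-fold higher at C5. None of these genes is characteristic of liver. CALB1, a calcium-binding protein of neurons and kidney, had 0.245, 0 and 0 CPM at C1 and 23.2, 15.4 and 36.1 CPM at C5. ACTBL2, an actin-like gene, had 0.245, 0 and 0.498 CPM at C1 and 49.2, 63.2 and 69.6 CPM at C5, at least 86.1-fold more. The noncoding transcript LOC339862 was at least 36.9-fold higher. PRR20G and GOLGA6L22 belong to families of near-identical copies, so which copy was counted is uncertain. The PRR20G feature had 0.245, 0 and 1.74 CPM at C1 and 212, 216 and 662 CPM at C5, and replicate 3 lay above the other C5 libraries. The GOLGA6L22 feature was at least 47.0-fold higher.

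The largest relative falls were of genes that define the metabolic work of the hepatocyte. SLC22A7, an uptake carrier for organic anions on the sinusoidal membrane, fell from 93.2, 70.4 and 69.8 CPM to 0.255, 0 and 0 CPM, at least 96.8-fold, and its other probe fell at least 59.1-fold. ADH4, an alcohol dehydrogenase, fell from 106, 178 and 148 CPM to 0.765, 0 and 0.296 CPM, at least 179.6-fold. FABP1, the fatty acid binding protein of liver, had 134, 100.4 and 137 CPM at C1 and 0.255, 0.253 and 0.889 CPM at C5 with the probe that reached the floor, at least 154-fold less. GPD1, which makes glycerol phosphate for triglycerides, and HAO1, a peroxisomal glycolate oxidase, fell at least 43.2-fold and 42.4-fold. ABCB11, the bile salt export pump, had 36.0, 16.2 and 15.2 CPM at C1 and 0, 0 and 0.296 CPM at C5, at least 27.9-fold less. THRSP, a lipogenic gene that responds to thyroid hormone, fell by 7.42 on the log2 scale (SE 0.654). No library of C5 reached the lowest C1 library in any of these features.

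In shares of the library, the largest losses were of secreted liver proteins. Haptoglobin, encoded by HP, had 29274, 27708 and 29154 CPM at C1 and 3492, 3648 and 3042 CPM at C5, a change of -3.08 on the log2 scale (SE 0.243, adjusted p = 1.29e-07). Albumin, encoded by ALB, had 31399, 28685 and 20751 CPM at C1 and 2734, 2928 and 1990.5 CPM at C5 (log2 -3.40, SE 0.270). FGA, FGB and FGG, the 3 chains of fibrinogen, fell by 3.30, 3.14 and 3.57. The acute-phase transcript SAA2 fell less, from 12144, 13317 and 9362 CPM to 6492, 6395 and 5099 CPM (log2 -0.95, SE 0.192, adjusted p = 0.00128), and its probe was not checked against the similar SAA1. At the other end, PEG10, an imprinted gene derived from a retrotransposon, had 1918, 3133 and 1519 CPM at C1 and 8885, 9862 and 8383 CPM at C5 (log2 2.05, SE 0.351). TIMP1, an inhibitor of matrix metalloproteinases, rose by 1.74, BIRC3, an inhibitor of apoptosis, by 1.79, and ANXA1, annexin A1, by 1.72. ODC1, the rate-limiting enzyme of polyamine synthesis, had 195, 256 and 314 CPM at C1 and 1606, 1828 and 2873 CPM at C5 (log2 3.04, adjusted p = 5.57e-07). TFPI2, an inhibitor of serine proteases, had 48.2, 71.5 and 33.9 CPM at C1 and 961, 1271 and 1106 CPM at C5 (log2 4.44, SE 0.677). IGFBP2, a carrier of insulin-like growth factors, CCDC124 and MALSU1, the latter with a role in mitochondrial ribosomes, rose by 1.58, 1.97 and 1.57.

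Proteins that the liver secretes into plasma fell almost as a body. Of 35 tested features of plasma proteins 29 fell and 0 rose, with a median log2 change of -2.86. Of 16 features of apolipoproteins and lipoprotein assembly 14 fell and 0 rose (median -2.79). Clotting and fibrinolysis factors had 19 falling features and 1 rising feature of 23 (median -3.24), and complement had 23 falling and 0 rising of 28 (median -3.33). TF, transferrin, had 8497, 7156 and 7194 CPM at C1 and 658, 537 and 557 CPM at C5 (log2 -3.70, SE 0.210, adjusted p = 3.73e-09). APOB, the structural protein of very low density lipoproteins, had 5776, 4953 and 6597 CPM at C1 and 261, 341 and 344 CPM at C5 (log2 -4.20). MTTP, which loads lipid onto APOB, had 64.6, 49.8 and 53.3 CPM at C1 and 1.02, 1.01 and 2.07 CPM at C5 (log2 -5.34). LEAP2, a liver peptide that antagonises the ghrelin receptor, had 408.9, 310.6 and 325.8 CPM at C1 and 2.04, 4.30 and 2.67 CPM at C5 (log2 -6.84, SE 0.472). KNG1, kininogen, fell by 5.63 and CPB2, an inhibitor of fibrinolysis, by 3.78. C4B fell by 3.96, CFB by 2.97 and the complement inhibitor CFI by 3.03, where the probe of C4B was not checked against C4A. The member that rose was F3, tissue factor, which starts clotting at the cell surface and is no secreted liver protein. It had 33.3, 31.8 and 21.9 CPM at C1 and 97.3, 66.5 and 72.0 CPM at C5 (log2 1.44, adjusted p = 0.00471). In these features, F3 included, the C5 and C1 libraries did not overlap.

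Promoters of LEAP2 and AGXT2, both falling, are shown because each holds the letters of a site of HNF4, a liver transcription factor. The sequences are the 250 bases before the annotated start in RefSeq on GRCh38.p14, in the direction of the gene. The letters were searched as CAAAGTCCA in both strands of 300-base promoters that end 50 bases past the start. Capitals mark the match. LEAP2 lies on the plus strand with these bases at chr5:132873418-132873667, and AGXT2, a mitochondrial aminotransferase, on the minus strand at chr5:35047950-35048199.
LEAP2: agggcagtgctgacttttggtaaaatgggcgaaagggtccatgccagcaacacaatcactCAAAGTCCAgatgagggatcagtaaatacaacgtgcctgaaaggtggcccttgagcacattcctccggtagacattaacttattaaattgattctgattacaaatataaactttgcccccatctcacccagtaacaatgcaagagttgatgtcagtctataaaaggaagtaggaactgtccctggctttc
AGXT2: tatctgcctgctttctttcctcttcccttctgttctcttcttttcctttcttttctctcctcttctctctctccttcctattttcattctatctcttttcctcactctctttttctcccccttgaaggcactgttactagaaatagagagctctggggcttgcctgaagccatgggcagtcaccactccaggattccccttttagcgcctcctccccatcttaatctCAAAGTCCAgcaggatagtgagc
Of 9624 promoters of tested genes, 34 (0.35%) held these letters, among them promoters of genes that rose and of genes that were not called. A promoter was found for 79.9% of the rising and 79.2% of the falling genes, under the 80% set as the minimum. For that reason no comparison of motif shares between rising and falling genes is drawn. A match is a description of letters, not a bound site.

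Enzymes and carriers of drug metabolism and bile formation fell as deeply. Of 76 tested features of cytochrome P450 and conjugating enzymes 53 fell and 2 rose (median -3.13). Of 48 features of bile acid synthesis and transport 38 fell and 1 rose (median -3.65). CYP3A4, the main drug-oxidising P450 of liver, had 583, 636 and 478 CPM at C1 and 3.31, 6.83 and 2.96 CPM at C5 (log2 -7.00, SE 0.395, adjusted p = 3.72e-09), and its other tested probe fell by 6.48. The alcohol dehydrogenases ADH1A and ADH1B, whose probes were not checked against each other, had 2047, 2036 and 1528 CPM at C1 and 17.8, 19.0 and 16.3 CPM at C5 and 2114, 2001 and 1909.5 CPM at C1 and 19.4, 19.0 and 11.6 CPM at C5. AOX1, aldehyde oxidase, fell to 278, 285 and 271 CPM from 2758, 2762 and 2784 CPM, with little spread between batches. BAAT, which conjugates bile acids, had 1475, 1201 and 1361 CPM at C1 and 20.6, 21.7 and 13.9 CPM at C5 (log2 -6.16). The canalicular pump ABCC2 had 219, 214 and 199 CPM at C1 and 9.43, 6.83 and 3.26 CPM at C5, and the uptake carrier SLCO2B1 had 352, 300.2 and 378 CPM at C1 and 5.61, 3.29 and 4.44 CPM at C5. None of these C5 libraries lay near C1. The members that rose did so by less, the arylamine acetyltransferases NAT1 and NAT2 by 1.15 and 0.94, and ABCC4, an export pump of the basolateral membrane, by 0.86. ABCC4 had 123, 123 and 111 CPM at C1 and 217, 238 and 194 CPM at C5 (adjusted p = 0.0444). Without replicate 3 of C1 these 3 rises were not called, with adjusted p-values of 0.0715, 0.163 and 0.131.

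Transcription factors and nuclear receptors that set the hepatocyte programme fell in part. Of 53 tested features 25 fell and 4 rose, with a median of -1.35. HNF4A, a receptor that many liver genes depend on, had 20.8, 19.6 and 24.9 CPM at C1 and 0.510, 1.77 and 0.296 CPM at C5 (log2 -4.59, SE 0.705, adjusted p = 1.27e-04). The bile acid receptor NR1H4 (FXR) had 53.6, 37.7 and 66.3 CPM at C1 and 1.53, 1.52 and 0 CPM at C5, and its target NR0B2 (SHP) went from 3.67, 3.79 and 2.74 CPM to 0 counts. The xenobiotic receptors NR1I2 (PXR) and NR1I3 (CAR) had 21.5, 22.1 and 30.9 CPM at C1 and 1.02, 0 and 0.296 CPM at C5 and 44.3, 40.3 and 19.9 CPM at C1 and 1.78, 1.01 and 2.07 CPM at C5. PROX1, which is required for liver development, had 119, 87.3 and 77.2 CPM at C1 and 12.2, 10.6 and 13.9 CPM at C5 (log2 -2.94, SE 0.273). The oxysterol receptor NR1H3 fell by 3.99, its partner RXRA by 2.58, NR5A2 by 2.15, HNF4G by 3.43 and CREB3L3 by 2.15. ONECUT1 fell by 3.53 with the probe that was called and had 8.56, 4.01 and 4.24 CPM at C1 and 2.55, 2.02 and 0 CPM at C5 with the one that was not (log2 -1.83, adjusted p = 0.262). PPARA, which drives fatty acid oxidation, fell by 1.76 and 1.30 with its probes. Its coactivator PPARGC1A fell by 1.54. The forkhead factors FOXA1 and FOXA2 fell by 1.77 and 1.71, while FOXA3 did not pass the test (log2 -0.68, adjusted p = 0.387). CEBPB, CEBPD, RORA and THRA (1 of 2 probes) fell by 1.21, 3.31, 1.35 and 1.08.

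Other members of that list were measured without passing the test. CEBPA had 17.9, 21.5 and 22.9 CPM at C1 and 17.8, 7.58 and 13.6 CPM at C5 (log2 -0.67, adjusted p = 0.223), and replicate 1 at C5 nearly equalled replicate 1 at C1. The glucocorticoid receptor NR3C1 had 59.2, 48.1 and 49.3 CPM at C1 and 42.6, 17.7 and 30.5 CPM at C5 (log2 -0.79, adjusted p = 0.0607). PPARG, the adipocyte regulator, had 137, 217 and 138 CPM at C1 and 164, 168 and 133 CPM at C5 (log2 -0.08). The 4 features that rose were ONECUT2, PPARD, AHR and ESR1. ONECUT2, a paralogue of ONECUT1, had 5.87, 9.91 and 7.72 CPM at C1 and 22.4, 18.2 and 20.4 CPM at C5 (log2 1.37, adjusted p = 0.0147). PPARD had 26.9, 21.7 and 20.9 CPM at C1 and 57.9, 54.9 and 51.8 CPM at C5 (log2 1.24) and AHR, the dioxin receptor, 40.1, 58.0 and 49.6 CPM at C1 and 73.4, 84.7 and 88.9 CPM at C5 (log2 0.74). ESR1, the oestrogen receptor, lay at the floor at C1 and had 10.4, 1.52 and 3.56 CPM at C5, at least 7.34-fold more. Without replicate 3 of C1 the adjusted p of AHR was 0.052 and that of ESR1 0.0864.

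Fuel metabolism of the hepatocyte fell less uniformly. Fatty acid oxidation and ketone body synthesis had 31 falling features and 1 rising feature of 44 (median -1.58), amino acid breakdown and the urea cycle 33 and 2 of 51 (median -1.81), glucose metabolism 20 and 3 of 41 (median -1.21), and synthesis of fatty acids and cholesterol 25 and 1 of 50 (median -0.85). HAO2, a peroxisomal hydroxyacid oxidase, had 734, 591 and 694 CPM at C1 and 6.63, 6.32 and 5.92 CPM at C5, and ACSL5, an acyl-CoA synthetase, fell by 3.18 (SE 0.184). Its relative ACSL3 rose, from 46.2, 44.5 and 72.7 CPM to 110.3, 127 and 173 CPM (log2 1.33, adjusted p = 0.00949). AGXT, which detoxifies glyoxylate, had 1077, 877 and 894 CPM at C1 and 7.39, 13.7 and 11.0 CPM at C5, and TDO2, which opens the tryptophan ring, had 512, 554 and 567 CPM at C1 and 20.6, 13.9 and 16.3 CPM at C5. AGXT2 had 80.0, 95.1 and 74.5 CPM at C1 and 0.510, 0.758 and 0.889 CPM at C5, at least 103-fold less. HPD, of tyrosine breakdown, fell by 5.18. GPT2, the mitochondrial alanine aminotransferase, and BCKDHB, of branched-chain breakdown, rose by 1.48 and 0.74 (adjusted p = 0.136 without replicate 3 of C1).

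In glucose metabolism some liver isoforms fell, and 3 features of isoforms best known from other tissues rose. G6PC, the phosphatase that releases glucose, had 203, 164 and 103 CPM at C1 and 3.82, 0.253 and 2.07 CPM at C5 (log2 -6.24, SE 0.578). SLC2A2, the glucose carrier of hepatocytes, had 53.6, 57.1 and 74.5 CPM at C1 and 0.765, 2.02 and 1.78 CPM at C5 (log2 -5.32). GCKR, the regulator of glucokinase, fell by 5.07. PKM, the pyruvate kinase outside the liver, had 754, 819.5 and 827 CPM at C1 and 1376, 1598 and 1442 CPM at C5 (log2 0.88, SE 0.171, adjusted p = 9.67e-04). SLC2A3, the glucose carrier of neurons, had 0 counts at C1 and 3.57, 3.03 and 5.33 CPM at C5, at least 5.65-fold more. The neuronal enolase ENO2 had 2.94, 0.632 and 0.249 CPM at C1 and 9.43, 6.83 and 9.78 CPM at C5 (log2 2.75, adjusted p = 0.0284, or 0.108 without replicate 3 of C1). These were all 3 rising features of the list, a share of 7.32% against 14.8% over all features. SLC2A3 passed the filter through higher concentrations alone. Without replicate 3 of C1, 2 features of the list rose. In lipid synthesis FASN, fatty acid synthase, fell by 2.52, FADS1, a desaturase, by 2.31, and MSMO1, of cholesterol synthesis, by 1.95. The single rise of that list was INSIG2, which restrains it, from 477, 582 and 353 CPM to 904, 890.4 and 768 CPM (log2 0.86, adjusted p = 0.0214, or 0.11 without replicate 3 of C1).

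**Figure D2:**
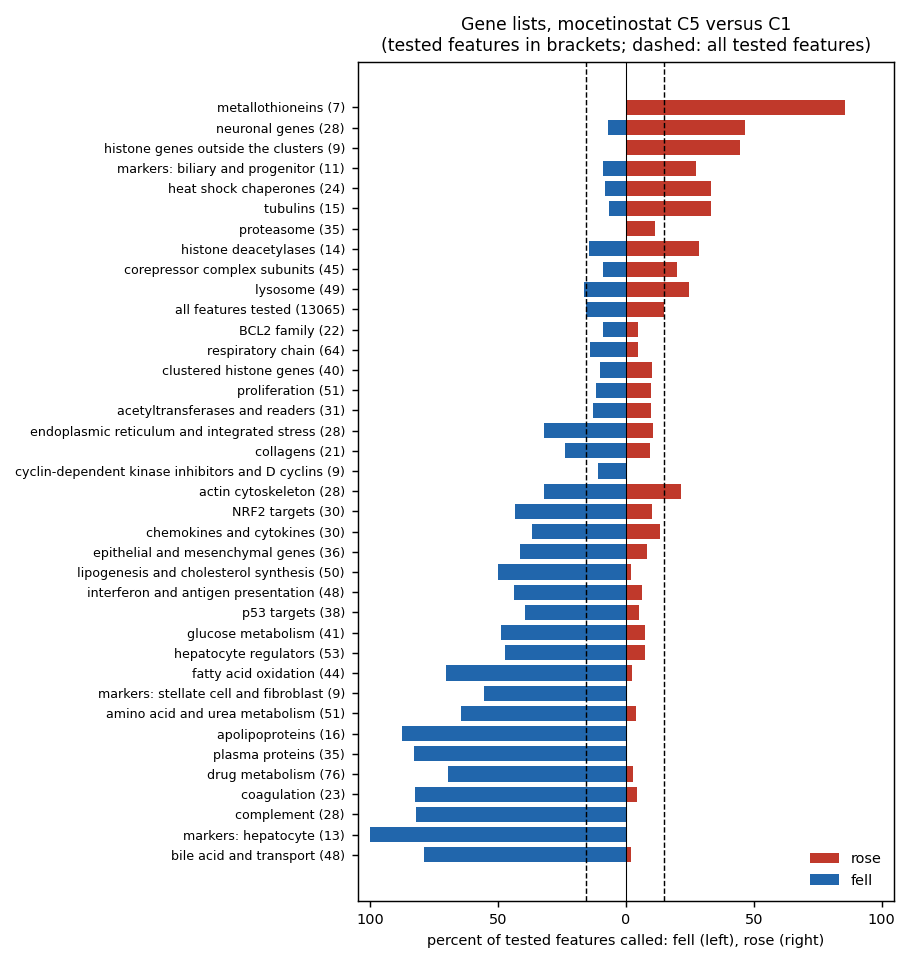
Percent of the tested features of each gene list that rose (red, right) or fell (blue, left) between C1 and C5, with the number of tested features in brackets and lists ordered by median log2 change. Dashed lines mark the shares over all tested features, 14.8% rising and 15.7% falling. All 13 hepatocyte marker features fell, and 6 of 7 tested features of the metallothionein list rose.

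Genes of the deacetylases changed in both directions. Of 14 tested features of zinc-dependent histone deacetylases 4 rose and 2 fell (median 0.27), shares of 28.6% and 14.3%, or 3 and 1 without replicate 3 of C1. Over all tested features 14.8% rose and 15.7% fell, so the falling share was no higher than that. HDAC3, the catalytic subunit of the NCoR/SMRT complexes, had 52.1, 66.0 and 53.6 CPM at C1 and 229, 243 and 230.5 CPM at C5, a rise of 2.03 on the log2 scale (SE 0.184, adjusted p = 5.33e-07). HDAC2, of the Sin3, NuRD and CoREST complexes, had 315, 399 and 342 CPM at C1 and 637, 611 and 605 CPM at C5 (log2 0.81, SE 0.163). Its close relative HDAC1 had 19.6, 28.7 and 47.3 CPM at C1 and 34.1, 45.0 and 89.8 CPM at C5 and did not pass the test (log2 0.82, adjusted p = 0.217). HDAC9, of class IIa, rose with both tested probes, from 4.65, 6.33 and 4.98 CPM to 18.9, 16.2 and 14.5 CPM and from 0.979, 4.01 and 0.996 CPM to 13.0, 11.1 and 5.92 CPM. A further probe of HDAC9 had at most 4 counts in any C1 or C5 library and was not tested. HDAC7 had 10, 13 and 20 counts at C1 and 7, 4 and 0 at C5 and was not tested either. HDAC6, the cytoplasmic deacetylase of tubulin, had 639, 609.9 and 609.6 CPM at C1 and 316, 233 and 279 CPM at C5 (log2 -1.17, SE 0.211, adjusted p = 5.44e-04), and fell by 1.35 with another probe. With its other 2 tested probes HDAC6 changed by -1.08 and -1.11, with adjusted p-values of 0.0517 and 0.336. HDAC11, the other enzyme that mocetinostat inhibits, had 12.5, 12.9 and 14.9 CPM at C1 and 17.1, 15.9 and 10.1 CPM at C5 (log2 0.10), and HDAC4, HDAC5, HDAC8 and HDAC10 changed by 0.77, 0.44, -0.17 and -0.74, none of them called. Of the class I enzymes, HDAC3 and HDAC2 had C5 libraries entirely above C1.

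Subunits of the complexes that hold these enzymes had 9 rising and 4 falling features of 45 (median 0.23), where 14.8% of all features rose. Without replicate 3 of C1 the counts were 8 and 2, and without the 3 libraries that stood apart 13 and 10. The rising features were SAP130, SAP30, SAP30L, SAP18, BRMS1, ING1 and ING2 of the Sin3 complex and TBL1X and GPS2 of the NCoR/SMRT complexes. ING1 had 45.3, 46.0 and 42.4 CPM at C1 and 119, 102 and 149.6 CPM at C5 (log2 1.47), ING2 51.9, 67.0 and 44.6 CPM at C1 and 159, 149 and 138 CPM at C5 (log2 1.45), BRMS1 80.7, 75.3 and 68.0 CPM at C1 and 225, 219 and 259.5 CPM at C5 (log2 1.65) and SAP30 35.5, 31.0 and 23.4 CPM at C1 and 91.7, 89.0 and 76.1 CPM at C5 (log2 1.51). CHD3, a remodelling helicase of NuRD, had 82.0, 88.3 and 80.0 CPM at C1 and 11.5, 8.09 and 9.18 CPM at C5 (log2 -3.12, SE 0.313, adjusted p = 1.64e-06). MTA2, also of NuRD, fell by 0.83. Acetyltransferases and bromodomain readers had 3 rising and 4 falling features of 31 (median -0.24). Their shares, 9.68% and 12.9%, lay below the 14.8% and 15.7% over all features. NCOA2, a nuclear receptor coactivator, fell by 2.52, KAT2B by 1.63 and EP300 by 0.81, while KAT6A and BRPF1, which share a complex, rose by 1.21 and 1.29. Without replicate 3 of C1, 0 of the 3 rises and 2 of the 4 falls of this list were called.

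Histone genes listed as outside the clusters, most of them expressed independently of replication, had 4 rising and 0 falling features of 9 (median 0.94). That list also counts HIST3H2BB, whose symbol names histone cluster 3. H1F0, the linker histone of quiescent cells, had 11.3, 13.3 and 21.7 CPM at C1 and 40.3, 33.1 and 60.7 CPM at C5 (log2 1.54, SE 0.382, adjusted p = 0.00596). H2AFY, macroH2A, had 229.5, 323 and 271 CPM at C1 and 469, 555 and 549.5 CPM at C5 (log2 0.94), and H2AFV and HIST3H2BB rose by 1.51 and 1.35. Without replicate 3 of C1 the adjusted p of H2AFV was 0.0764 and that of HIST3H2BB 0.0743. Replication-dependent histone genes of the clusters had 4 rising and 4 falling features of 40 (median -0.19), or 2 falling without replicate 3 of C1 and 8 without the 3 libraries that stood apart. In the main fit the shares, 10% each, lay below the 14.8% and 15.7% over all features. HIST1H4H had 24.5, 31.8 and 19.2 CPM at C1 and 71.4, 74.3 and 102 CPM at C5 (log2 1.71) and HIST1H1B, a linker histone, 105, 167 and 212 CPM at C1 and 40.3, 44.2 and 127 CPM at C5 (log2 -1.20, adjusted p = 0.0283), with replicate 3 at C5 above replicate 1 at C1. Probes of these near-identical genes were not checked for reads from sister genes.

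The list of metallothioneins, small proteins that bind zinc and copper, had the largest share of rising features among the lists. Of its 15 features 7 were tested, and the others had at most 30 counts in any C1 or C5 library. Of these 7, which include the zinc sensor MTF1 and the zinc exporter SLC30A1, 6 rose and 0 fell (median 2.48). MT1A passed the filter through higher concentrations alone, so the share of rising members is a description only. MT2A had 58.0, 48.9 and 61.3 CPM at C1 and 1073, 1247 and 1301 CPM at C5 (log2 4.43, SE 0.249, adjusted p = 3.71e-09). MT1M had 13.2, 14.5 and 22.7 CPM at C1 and 187, 207 and 226 CPM at C5 (log2 3.62), MT1E 36.2, 38.6 and 27.2 CPM at C1 and 159, 235 and 176 CPM at C5 (log2 2.48) and MT1X 5.14, 3.16 and 2.24 CPM at C1 and 15.8, 25.03 and 18.1 CPM at C5 (log2 2.47). MT1A had 0.245, 1.26 and 0.747 CPM at C1 and 40.5, 36.9 and 54.2 CPM at C5 (log2 5.78, SE 0.487). These genes are near-identical copies, so reads could be shared between their probes. MTF1 had 2.69, 4.01 and 4.73 CPM at C1 and 11.2, 8.60 and 17.8 CPM at C5 (log2 1.71). SLC30A1 had an adjusted p of 0.0401 but a log2 change of 0.45, below the fold required. The promoters of MT2A and MT1X are shown because metallothionein genes carry metal response elements, to which MTF1 binds. The elements were searched as TGCACNC and TGCGCNC in both strands and are in capitals. The bases are the 250 before the start, both on the plus strand, at chr16:56608334-56608583 for MT2A and chr16:56682220-56682469 for MT1X in GRCh38.p14.
MT2A: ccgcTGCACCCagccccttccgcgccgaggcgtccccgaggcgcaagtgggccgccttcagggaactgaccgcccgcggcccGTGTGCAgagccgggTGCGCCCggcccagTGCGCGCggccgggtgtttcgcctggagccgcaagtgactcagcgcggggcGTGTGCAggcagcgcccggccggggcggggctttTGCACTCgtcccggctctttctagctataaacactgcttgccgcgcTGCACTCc
MT1X: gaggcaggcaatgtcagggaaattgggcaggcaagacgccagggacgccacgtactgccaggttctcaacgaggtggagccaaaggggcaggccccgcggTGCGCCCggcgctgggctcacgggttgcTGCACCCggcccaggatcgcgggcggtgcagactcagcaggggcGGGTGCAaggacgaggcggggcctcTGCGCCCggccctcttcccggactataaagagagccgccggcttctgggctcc
MT2A held 7 matches and MT1X held 4. Of all 9624 promoters of tested genes, 11.3% held TGCACNC and 30.0% held TGCGCNC at least once, so the letters alone are common.

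Lists of stress genes differed in their shares of rising and falling features, where 14.8% of all features rose and 15.7% fell. Heat shock proteins and cochaperones had 8 rising and 2 falling features of 24 (median 0.57), shares of 33.3% and 8.33%. Without replicate 3 of C1 only 4 rose and 1 fell. HSPA2, a chaperone best known from testis, had 2.45, 2.53 and 4.48 CPM at C1 and 47.4, 68.0 and 60.1 CPM at C5 (log2 4.21, SE 0.353, adjusted p = 2.33e-07). HSP90AA1, the inducible HSP90, had 173, 255 and 258 CPM at C1 and 578, 720.5 and 788 CPM at C5 (log2 1.60), and DNAJB1 and HSPA8 rose by 1.51 and 0.82. HSPB8 and BAG3, partners in chaperone-assisted autophagy, fell by 1.78 and 0.78. Targets of the antioxidant factor NRF2 had 3 rising and 13 falling features of 30 (median -0.49), shares of 10% and 43.3%. The rises were of the peroxide defence genes SRXN1 (96.6, 130.3 and 125 CPM at C1 and 687, 757 and 879.9 CPM at C5) and PRDX1 (122, 98.2 and 104 CPM at C1 and 704, 840.1 and 705 CPM at C5) and of GCLC, of glutathione synthesis, with log2 changes of 2.72, 2.79 and 1.30. The aldo-keto reductases AKR1B10, AKR1C1 and AKR1C3 fell by 4.29, 2.21 and 3.18, and AKR1C probes were not checked for shared reads. The endoplasmic reticulum and integrated stress list had 3 rising and 9 falling features of 28 (median -0.27), or 1 and 9 with the cell batch as a block. In the main fit its shares were 10.7% and 32.1%. HSPA5, its main chaperone, had 401, 423 and 605 CPM at C1 and 138, 154 and 232 CPM at C5 (log2 -1.45), XBP1 fell by 3.87 and TRIB3 by 2.47, while ASNS, asparagine synthetase, rose by 1.74.

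Some neuronal and neuroendocrine genes rose from low levels. Of 70 features of the list 28 were tested. Members at the floor at C1, such as SYT11 and NEFL, passed the filter through higher concentrations alone, so the share of rising members is a description only. Of the 28, 13 rose and 2 fell (1 with the cell batch as a block), with a median of 1.48, or 0.97 where features at the floor take their lower bound instead. SCG2, a secretogranin of dense-core vesicles, had 2.45, 0.843 and 0.996 CPM at C1 and 97.6, 82.7 and 96.0 CPM at C5 (log2 6.00, SE 0.465, adjusted p = 1.11e-07). CCK, the precursor of cholecystokinin, had 0.734, 1.26 and 2.49 CPM at C1 and 104, 88.0 and 90.7 CPM at C5 (log2 5.96). SYT11, a synaptotagmin, was at least 105-fold higher at C5, with 63.2, 75.8 and 82.7 CPM, and NCAM1, the neural cell adhesion molecule, had 51.4, 41.1 and 24.7 CPM at C1 and 207, 188 and 215 CPM at C5 (log2 2.38). The members that fell were RTN1 and SCG5, by 1.88 and 2.93. Tubulins had 5 rising features and 1 falling feature of 15 (median 0.53), or 3 rising without replicate 3 of C1. TUBA1A, an isotype abundant in neurons, had 5.63, 3.79 and 5.23 CPM at C1 and 31.3, 26.3 and 39.4 CPM at C5 with a probe above the floor (log2 2.72), and was at least 51.5-fold higher with the other. TUBB2B, another neuronal isotype, had 10.5, 8.43 and 9.22 CPM at C1 and 10.7, 34.9 and 24.6 CPM at C5 (log2 1.31, adjusted p = 0.0245), with replicate 1 barely above C1. TUBA4A fell by 1.22.

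Markers of cell types were measured beside these groups. All 13 features of hepatocyte markers fell (median -3.40), and their summed level went from 51574 to 66575 CPM over the C1 libraries to 7444 to 9270.2 CPM over the C5 libraries. The smallest falls of the list were of TTR, transthyretin, with 4947, 4729 and 5122 CPM at C1 and 2328, 2439 and 1940.4 CPM at C5 (log2 -1.14), and of SERPINA1, antitrypsin, with 4561, 4392 and 3142 CPM at C1 and 1581, 1515 and 1228 CPM at C5 (log2 -1.48). The liver transcripts thus fell by unequal amounts. Of 11 tested features of biliary and progenitor markers 3 rose and 1 fell (median 0.77), with summed levels of 324 to 398 CPM at C1 and 228 to 240.1 CPM at C5. In a fit of 45 libraries of mocetinostat, tacedinaline and apicidin, 15 features of this list were tested and their median change in mocetinostat was -0.57. The sign of the median therefore depended on which features were tested, and no common direction is drawn from it. SOX9, a factor of biliary cells, had 21.8, 21.9 and 26.9 CPM at C1 and 72.6, 55.6 and 46.2 CPM at C5 (log2 1.31, adjusted p = 0.00551), and SPP1, osteopontin, rose by 1.35, while ANXA4 fell by 2.06. The 2 tested probes of KRT19, a keratin of bile ducts, changed by -0.97 and -0.51 and were not called. EPCAM had at most 1 count and KRT7 at most 13 in any C1 or C5 library, and neither was tested. Of 9 features of stellate cell and fibroblast markers 5 fell and 0 rose (median -1.77). DCN, decorin, had 47.0, 29.5 and 42.6 CPM at C1 and 6.88, 11.1 and 5.63 CPM at C5 (log2 -2.32), and summed levels went from 228 to 310 CPM to 153 to 166 CPM. Among endothelial markers only KDR had enough counts to be tested (log2 -1.99, adjusted p = 0.139). Of 3 features of macrophages and lymphocytes CD14 fell by 2.15, and CD68 and CD3D had changes of -0.54 and -0.48. What part a shift of cell types had in the results was not tested.

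The matrix and cytoskeleton moved in both directions. Actin-binding and contractile proteins had 6 rising and 9 falling features of 28 (median -0.48), or 3 and 8 without replicate 3 of C1. In the main fit their shares were 21.4% and 32.1%, where 14.8% of all features rose and 15.7% fell. ACTB, beta actin, had 408, 369 and 393 CPM at C1 and 151, 134 and 169 CPM at C5 (log2 -1.36, SE 0.189), GSN, gelsolin, fell by 2.30, and MYH10, nonmuscle myosin, rose by 1.20. Epithelial and mesenchymal genes had 3 rising and 15 falling features of 36 (median -0.79), shares of 8.33% and 41.7%, so the rising share lay below that of all features. CLDN1, a tight junction claudin, fell by 2.13, SPARC by 2.46, MMP7 by 1.70 and CDH2, N-cadherin, rose from 141, 157 and 124 CPM to 261, 265 and 237 CPM (log2 0.86). Collagens had 2 rising and 5 falling features of 21 (median -0.35), among them COL16A1 with a rise of 1.64 and COL18A1 with a fall of 1.61. The collagen shares were 9.52% and 23.8%, against 14.8% and 15.7% over all features.

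Genes of the cell cycle showed no common direction. Over all features 14.8% rose and 15.7% fell. Of 51 tested features of DNA replication and mitosis 5 rose and 6 fell (median -0.21), shares of 9.80% and 11.8%. With the cell batch as a block 4 rose and 11 fell, and without the 3 libraries that stood apart 7 rose and 15 fell. Genes of DNA synthesis moved in both directions. CDC6, which licenses origins, had 17.1, 19.0 and 14.0 CPM at C1 and 46.1, 64.0 and 74.7 CPM at C5 (log2 1.88, SE 0.314, adjusted p = 2.63e-04), MCM10 33.8, 35.8 and 27.2 CPM at C1 and 96.1, 70.3 and 122 CPM at C5 (log2 1.57), GINS2 14.9, 21.7 and 18.7 CPM at C1 and 57.1, 48.0 and 75.5 CPM at C5 (log2 1.70) and TK1 7.83, 6.54 and 8.47 CPM at C1 and 19.9, 23.8 and 27.8 CPM at C5 (log2 1.64). In these genes the C5 libraries lay above all C1 libraries. TYMS, thymidylate synthase, had 618, 872 and 564 CPM at C1 and 183, 156 and 148 CPM at C5 (log2 -2.08, SE 0.212), the opposite direction. RRM2, a subunit of ribonucleotide reductase, rose with a dim probe (log2 2.91, adjusted p = 0.0424) and changed by 0.28 with the brighter one (adjusted p = 0.493). MKI67, the Ki-67 antigen of cycling cells, had 199, 255 and 174 CPM at C1 and 110.3, 108 and 144 CPM at C5 (log2 -0.79, adjusted p = 0.0142), and the mitotic genes KIF20A and CENPF fell by 2.73 and 1.37. Cyclin-dependent kinase inhibitors and D cyclins had 0 rising features and 1 falling feature of 9. CDKN2C (p18) fell from 15.9, 8.64 and 13.5 CPM to 1.02, 2.02 and 0.889 CPM (log2 -3.23, adjusted p = 0.00255). CDKN1B (p27) had 43.8, 49.5 and 44.3 CPM at C1 and 36.7, 43.5 and 26.1 CPM at C5 (log2 -0.37, adjusted p = 0.368), CDKN2D (p19) changed by 2.43 (adjusted p = 0.14) and CCND1 by -1.46. The probe of CDKN1A (p21) had 3, 0 and 5 counts at C1 and 3, 0 and 5 at C5 and was not tested, so nothing can be said of that gene.

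Targets of p53 fell more often than they rose. Of 38 tested features 15 fell and 2 rose (median -1.02). MDM2, which degrades p53 and is itself a p53 target, fell with 3 probes. The brightest had 5396, 6448 and 3627 CPM at C1 and 658, 603 and 675 CPM at C5 (log2 -3.00, SE 0.355, adjusted p = 9.41e-06) and the others 469, 441 and 373 CPM at C1 and 40.8, 37.9 and 39.1 CPM at C5 and 242, 256 and 186 CPM at C1 and 22.7, 14.9 and 16.3 CPM at C5. TP53I3 and ZMAT3 fell by 2.14 and 1.93. Both rising features were of GDF15, a stress cytokine, which had 37.7, 44.9 and 28.1 CPM at C1 and 282, 308 and 251 CPM at C5 with the first probe (log2 2.92, SE 0.288) and a rise of 2.44 with the second. In the BCL2 family 1 feature rose and 2 fell of 22 (median 0.04), or 2 and 4 without the 3 libraries that stood apart. In the main fit the shares were 4.55% and 9.09%, against 14.8% and 15.7% over all features. BCL2L11, the pro-apoptotic BIM, had 54.8, 47.6 and 47.6 CPM at C1 and 175, 144 and 153 CPM at C5 (log2 1.65, adjusted p = 1.11e-04). BAX, also pro-apoptotic, had 600.4, 658 and 609 CPM at C1 and 267, 263 and 331 CPM at C5 (log2 -1.12), and BCL2L1, whose main product BCL-XL is protective, had 677, 770.4 and 703 CPM at C1 and 437, 345 and 313 CPM at C5 (log2 -0.97).

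Immune genes fell more often than they rose. Interferon-stimulated genes and class I antigen presentation had 21 falling and 3 rising features of 48 (median -0.93), or 14 and 2 without replicate 3 of C1. GBP1, a GTPase induced by interferon, had 167, 164 and 118 CPM at C1 and 18.9, 19.2 and 16.0 CPM at C5 (log2 -3.05), and IFI16 and the immunoproteasome subunit PSMB8 fell by 3.02 and 2.30. Chemokines and cytokines had 11 falling and 4 rising features of 30 (median -0.72). CXCL2, which attracts neutrophils, had 706, 761 and 661 CPM at C1 and 90.5, 106 and 78.8 CPM at C5 (log2 -2.95) and CCL20, which attracts lymphocytes, had 28.4, 16.0 and 21.2 CPM at C1 and 128, 208 and 241 CPM at C5 (log2 3.13), so members of the family moved in opposite directions. NFKB1 fell by 2.16 and NFKB2 rose by 1.58 (adjusted p = 0.0866 without replicate 3 of C1). Of the globin list 2 features were tested: HBG1, fetal globin, had 1.47, 0.843 and 1.74 CPM at C1 and 6.37, 14.4 and 19.6 CPM at C5, not checked against the near-identical HBG2, and CYGB, cytoglobin, had 96.6, 90.9 and 87.2 CPM at C1 and 1.78, 3.03 and 2.67 CPM at C5.

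The respiratory chain, the proteasome and the lysosome were measured as machinery that most cells use. Nuclear-encoded subunits of the respiratory chain had 3 rising and 9 falling features of 64 (median -0.12), or 6 and 14 without the 3 libraries that stood apart, with NDUFA7 rising by 1.19 and UQCRFS1 falling by 1.66. In the main fit their shares were 4.69% and 14.1%, below the 14.8% and 15.7% over all features. Proteasome subunits had 4 rising and 0 falling features of 35 (median 0.30), or 2 rising without replicate 3 of C1, the library in which PSMA3 was low, and 7 rising without the 3 libraries that stood apart. PSMD4 had 257, 318 and 376 CPM at C1 and 436, 526 and 504 CPM at C5 (log2 0.63, adjusted p = 0.0209). Lysosomal genes had 12 rising and 8 falling features of 49 (median 0.17), shares of 24.5% and 16.3%, or 8 and 6 without replicate 3 of C1 and 15 and 13 without the 3 libraries that stood apart. CTSB, cathepsin B, had 239, 262 and 238 CPM at C1 and 625, 699 and 620.0 CPM at C5 (log2 1.40, SE 0.156, adjusted p = 5.1e-06). MCOLN1, a calcium channel of lysosomes, had 4.16, 5.90 and 11.0 CPM at C1 and 26.5, 48.0 and 60.1 CPM at C5 (log2 2.68). The cathepsins L and D, encoded by CTSL and CTSD, fell by 1.39 and 0.91.

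The response built up over the intermediate concentrations, all compared with the same C1 libraries. At C2 25 features were called (0.191%), 20 rising (0.153%) and 5 falling (0.0383%). At C3 1513 were called (11.6%), 842 rising (6.44%) and 671 falling (5.14%), and at C4 3098 (23.7%), 1579 rising (12.1%) and 1519 falling (11.6%). Without batch 3, which holds the library of C2 that differed from both others, C2 had 3230 calls, and without batch 1 or batch 2 it had 0, so its count depended on which libraries were used. Of the 1934 features rising at C5, 742 (38.4%) were called in the same direction at C3 and 1404 (72.6%) at C4. Of the 2049 falling, 638 (31.1%) were so at C3 and 1357 (66.2%) at C4. Another 508 rising and 670 falling features were called at C5 alone. CYP3A4 had a mean of 566 CPM ± 80.8 at C1 (SD, n = 3), then of 106, 16.0 and 4.34 CPM at C2, C3 and C4 and of 4.37 CPM ± 2.14 at C5. FABP1, with the probe that stayed above the floor, had 676 CPM ± 92.8 at C1 (SD, n = 3) and 482, 14.6 and 3.31 CPM at C2, C3 and C4. HP had 39176, 10939 and 5208 CPM, against 28712 CPM ± 871 (SD, n = 3) at C1. Its C2 libraries had 48280, 46808 and 22439 CPM, so the C2 mean above C1 came from replicates 1 and 2, which stood apart. All C2 and C3 means given here include the libraries that stood apart. MT2A had 104, 382 and 915 CPM and SCG2 4.83, 19.1 and 71.4 CPM, both rising at each step. HDAC3 had 62.1, 108 and 218 CPM, with 234 CPM ± 7.68 (SD, n = 3) at C5. ANXA1 had 2034, 4032 and 4638 CPM and 2812 CPM ± 211 (SD, n = 3) at C5, so its highest mean was at C4. HBG1 had 9.93, 20.4 and 9.80 CPM, with the highest mean at C3. Differences between C4 and C5 were not tested.

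**Figure D3:**
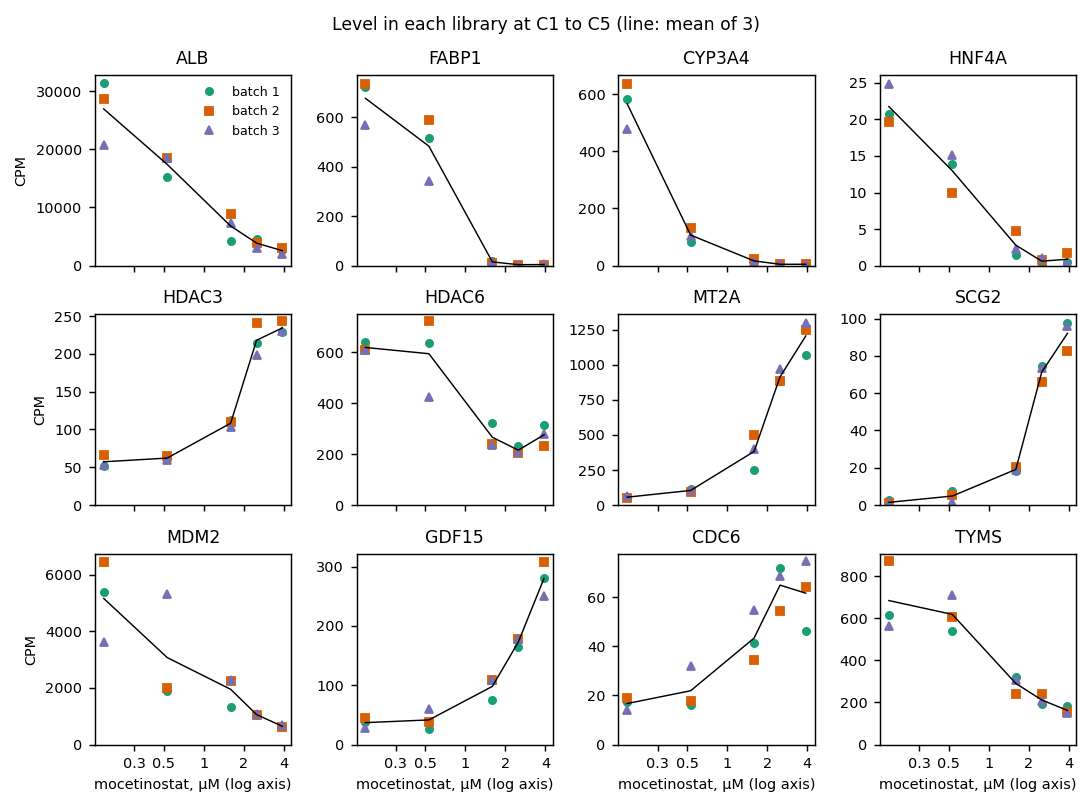
CPM in each library at the 5 concentrations of mocetinostat (log axis, µM) for 12 features, with symbols for the 3 cell batches and a line through the means. The mean of ALB falls at every step, those of FABP1, CYP3A4 and HNF4A are lowest at C4, and those of HDAC3, SCG2 and MT2A rise at every step to 234, 92.1 and 1207 CPM at C5.

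**Figure D4:**
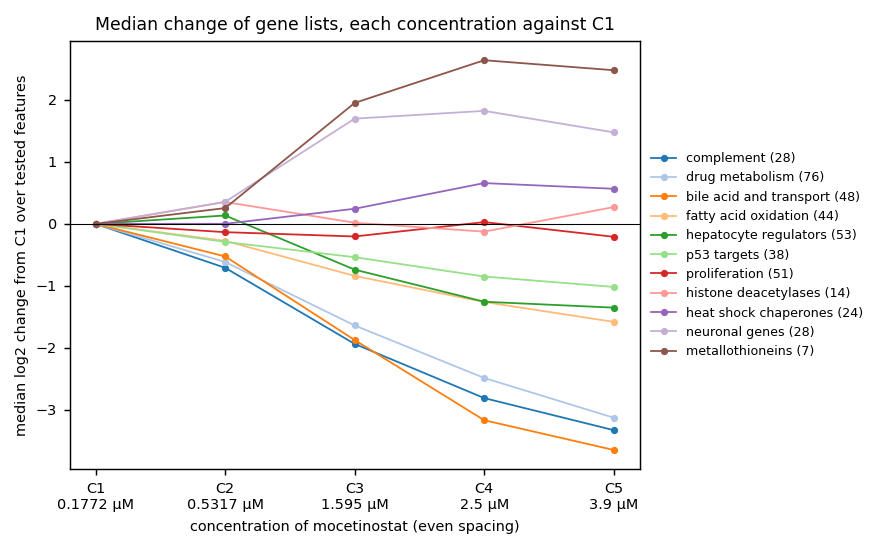
Median log2 change from C1 over the tested features of 11 gene lists at each concentration, with the number of features in brackets. Complement, drug metabolism, bile acid and fatty acid oxidation move down at every step, to -3.33, -3.13, -3.65 and -1.58 at C5. The proliferation list stays between -0.21 and 0.03, and all points share the C1 libraries.

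Tacedinaline is another benzamide inhibitor of class I deacetylases, and its C5 to C1 change was set against that of mocetinostat. The concentrations do not match (1.143 to 44 µM against 0.177 to 3.9 µM), and the tacedinaline libraries lay on another plate, so compound, dose range and plate cannot be told apart. In a fit of 45 libraries, which scales CPM slightly differently, the difference of the changes was called in 11 of 14273 features (0.0771%). Mocetinostat had the higher change in 2 (0.014%) and the lower in 9 (0.0631%), and 1086 features had an unadjusted p under 0.05, so this count does not show that the others responded alike. With the cell batch as a block 17 features were called. PLIN2, the coat protein of lipid droplets, had 349, 209 and 383 CPM at C1 and 32.4, 20.9 and 37.9 CPM at C5 of mocetinostat, and 71.5, 62.7 and 56.8 CPM at C1 and 35.1, 29.0 and 37.0 CPM at C5 of tacedinaline, a difference of -2.45 on the log2 scale (edgeR adjusted p = 1.49e-04, SE 0.353). Its C1 levels already differed between the compounds. S100A8, a calgranulin, had 331, 339 and 308 CPM at C1 and 406, 502 and 380.3 CPM at C5 of mocetinostat, and 130.2, 110.0 and 153 CPM at C1 and 735, 719.6 and 601 CPM at C5 of tacedinaline (difference -1.99, SE 0.286), again from unlike C1 levels. DKK1, a secreted WNT inhibitor, changed by -1.96 in mocetinostat and -0.10 in tacedinaline, from C1 levels of 131 to 165 and 85.3 to 111 CPM. AKR1C4, of bile acid and steroid metabolism, and CLMP, an adhesion protein, fell more in mocetinostat, with differences of -1.92 and -3.33. CLMP lay at the floor at C5 of mocetinostat, so its fitted difference depends on the prior count and is no exact size. LGSN rose more (difference 2.73), and DDC, aromatic amino acid decarboxylase, fell less (difference 1.82). Of these only PLIN2 and S100A8 stayed below an adjusted p of 0.05 whichever batch was left out, with highest values of 0.0455 and 0.0405.

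Apicidin is a cyclic tetrapeptide that inhibits class I deacetylases and has no benzamide group. It lay on the same plate as mocetinostat, but its range (0.0417 to 0.86 µM) does not match either, so compound and dose range cannot be told apart. The difference of the changes was called in 952 of 14273 features (6.67%), higher in mocetinostat in 336 (2.35%) and lower in 616 (4.32%). Of these, 284 were called in the same direction in both compounds and 55 in opposite directions, while 410 were called in mocetinostat alone and 175 in apicidin alone. Without single batches the count ranged from 293 to 643, the lowest without batch 2.

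The clearest list in this contrast was that of DNA replication and mitosis. Of 52 tested features 24 had a higher change in mocetinostat and 0 a lower one, and the median change was -0.18 in mocetinostat and -1.88 in apicidin. MKI67 had 214, 271 and 187 CPM at C1 and 113, 110.3 and 150.2 CPM at C5 of mocetinostat, and 234, 224 and 278 CPM at C1 and 41.7, 26.7 and 37.3 CPM at C5 of apicidin (difference 1.95, edgeR adjusted p = 2.25e-05, SE 0.307). RRM2 had 50.5, 71.7 and 85.1 CPM at C1 and 66.4, 76.7 and 99.6 CPM at C5 of mocetinostat with its brighter probe, and 58.9, 67.5 and 82.6 CPM at C1 and 14.5, 14.9 and 7.94 CPM at C5 of apicidin (difference 2.71, SE 0.395). MCM10 rose in mocetinostat and fell in apicidin, with changes of 1.52 and -0.96. All 3 differences stayed under an adjusted p of 0.05 whichever batch was left out. In the clustered histone genes 8 of 43 features had a higher change and 0 a lower one (medians -0.19 and -1.07). The members of these lists named here were chosen after their values were seen.

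Features of liver lists had the lower change in mocetinostat more often than the higher one. Among drug-metabolism features 23 of 80 had a lower and 1 a higher change (medians -3.08 and -1.63), among bile acid and transport features 14 and 1 of 49 (medians -3.67 and -2.21), and among hepatocyte regulators 12 and 0 of 58 (medians -1.39 and -0.71). TAT, tyrosine aminotransferase, had 111, 95.2 and 179.9 CPM at C1 and 0.523, 3.36 and 0.617 CPM at C5 of mocetinostat, and 72.4, 61.6 and 73.6 CPM at C1 and 36.6, 45.9 and 30.1 CPM at C5 of apicidin (difference -5.47, SE 0.623, edgeR adjusted p = 4.92e-08). The change in apicidin alone, -0.88, was not called. SLC2A2 had 57.6, 60.7 and 80.3 CPM at C1 and 0.784, 2.07 and 1.85 CPM at C5 of mocetinostat, and 56.8, 51.7 and 39.6 CPM at C1 and 34.0, 42.8 and 26.5 CPM at C5 of apicidin (difference -4.86). CUX2, a homeobox gene, and CYP4B1, a P450, had differences of -5.12 and -4.61. C5orf46 rose in apicidin, to 25.4, 42.8 and 42.1 CPM, and not in mocetinostat (difference -5.17, highest adjusted p without a batch 0.0739). Among features that rose more in mocetinostat, DHRS2, a mitochondrial dehydrogenase, had 3.42, 3.81 and 3.76 CPM at C1 and 343, 341 and 267 CPM at C5 of mocetinostat, and 4.78, 5.05 and 4.25 CPM at C1 and 14.5, 5.44 and 7.70 CPM at C5 of apicidin (difference 5.46, SE 0.570, edgeR adjusted p = 9e-09), and the difference was 5.27 with its other probe. HTRA3, a serine protease, and ACTBL2 had differences of 7.09 and 3.90, with highest adjusted p-values of 0.164 and 0.832 without a batch. HTRA3 and ACTBL2 lay at the floor at C1 of mocetinostat and CUX2 at C5, so these fitted differences depend on the prior count and are neither exact sizes nor bounds. The list of deacetylases had 0 called differences of 15 features, and that of metallothioneins 0 of 8, where 6.67% of all features were called. In lists this short, 0 calls do not show that the members responded alike in both compounds.

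**Figure D5:**
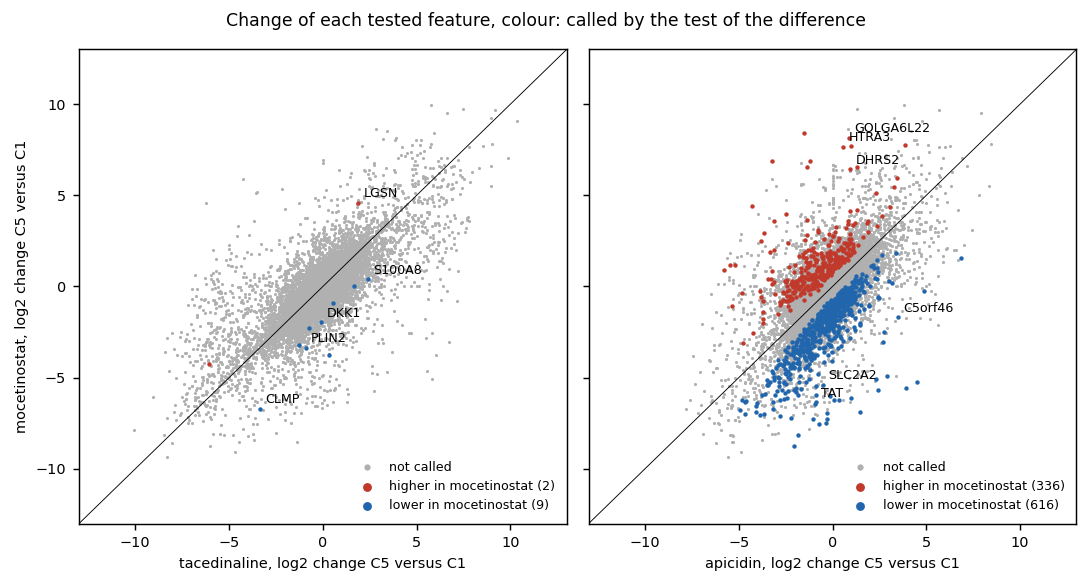
Log2 change from C1 to C5 of each tested feature in mocetinostat (vertical) against tacedinaline (left) and apicidin (right), with the line of equal change. Coloured features are those called by the test of the difference, red where mocetinostat had the higher change and blue where it had the lower. Against tacedinaline 11 features are coloured and against apicidin 952, with TAT and SLC2A2 far below the line and DHRS2 far above it.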

How the data were processed

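Whole-transcriptome TempO-Seq libraries of HepaRG lysates were sequenced on an Illumina NextSeq. The authors deposited raw counts per probe, 1 table for 118 libraries. The submitters' processing notes name bcl2fastq 2.20.422, fastp 0.23.2, STAR 2.7.10b and DESeq2 1.38.0 without their roles. The genome build, the counter and the probe sequences are not given in the sources used here, so reads shared between similar genes could not be assessed. Of 22069 rows 22068 were used, since the last held no value in 88 libraries. Of 19470 symbols 19353 matched RefSeq.

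The deposited counts of the 15 mocetinostat libraries (3045318 to 5220707 per library) were fitted in edgeR 4.0.16 (R 4.3.3; filterByExpr, TMM scaling) with 1 term per concentration and no batch term, and each concentration was tested against C1 with the quasi-likelihood F test. Differences between compounds were contrasts of 45 libraries of 3 compounds. Calls needed a fold of 1.5 and an adjusted p (Benjamini-Hochberg) under 0.05. CPM are counts divided by the TMM-scaled library size, and the SE is the log2 change over the root of F. A group with 3 counts or fewer in each library lay at the floor, and bounds used 3 counts per library. Replicate numbers marked shared cell batches in the labels. Deviations of C1 and C5 libraries of a batch correlated at 0.109, 0.0155 and 0.259. Precision is limited by 3 libraries per group more than by depth. The fit was tested on simulated data.

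The groups, the 35 gene lists and 5 marker lists, and the tests were chosen with earlier results of these data known. Named were the 10 features per direction with the largest log2 change (same direction in 3 batches, 20 CPM or more in the higher group), the 10 with the largest change in CPM, up to 4 called members per direction of each list by adjusted p, all deacetylases, hepatocyte regulators, cell cycle inhibitors and markers, and 5 features per direction of each difference. KNG1, CFB, MT1X, MTF1, SLC30A1, ZMAT3, NFKB1, RRM2, AGXT2, LEAP2, SAP130, SAP30L, SAP18, TBL1X and GPS2 were chosen after their values were seen where no part of that rule names them. Some list members are not reported here. Promoters came from RefSeq tables of GRCh38.p14. Alternatives were DESeq2 1.42.0, other scalings and filters, thinned counts, summed probes, fewer libraries and the batch as a block. The fits without libraries that stood apart were added after seeing the data.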

Additional observations from a re-analysis of the deposited data

Results flagged for a closer look

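The changes of mocetinostat and tacedinaline differed, by a test of the difference itself, in 11 features. The named ones were LGSN (2.73 on the log2 scale, mocetinostat minus tacedinaline), DDC (1.82), CLMP (-3.33), PLIN2 (-2.45), S100A8 (-1.99), AKR1C4 (-1.92) and DKK1 (-1.86). For DDC the sign means a smaller fall in mocetinostat, and for S100A8 a rise in tacedinaline that was not called in mocetinostat. CLMP lay at the floor at C5 of mocetinostat, so its fitted value depends on the prior count and is no exact size.

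The changes of mocetinostat and apicidin differed in 952 features. The difference was positive for GOLGA6L22 (7.29), HTRA3 (7.09), DHRS2 (5.46 and 5.27 with its probes) and ACTBL2 (3.90), and negative for TAT (-5.47), C5orf46 (-5.17), CUX2 (-5.12), SLC2A2 (-4.86) and CYP4B1 (-4.61). GOLGA6L22, HTRA3 and ACTBL2 lay at the floor at C1 of mocetinostat and CUX2 at C5, so these 4 fitted values depend on the prior count and are neither exact sizes nor bounds. Concentration ranges differ between the compounds, so dose range and compound cannot be told apart in either contrast.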

How the results depend on the processing

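The count of features called between C5 and C1 (3983) ranged from 3337 with a fold of 2 to 5394 without the 3 libraries of C2 and C3 that stood apart, or 4868 (2336 rising, 2532 falling) also without replicate 3 of C1, over DESeq2, other scalings and filters, thinned counts, summed probes, the C5 and C1 libraries alone (4887) and the cell batch as a block (3950). With 1 library or batch left out it ranged from 1772 to 3444, with 738 to 1629 rising and 1034 to 1815 falling, the lowest without batch 2. Of 267 named features that were called none turned its direction in any alternative, and 180 were still called without batch 2 against 228 or more in every other alternative.

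Other counts moved more. At C2 (25 features) DESeq2 called 447 and the fit with no filter 193, and leaving out a batch gave 0 to 3230. Leaving out a batch gave 272 to 1005 at C3 (1513), 1128 to 2096 at C4 (3098), and 293 to 643 for the difference from apicidin (952), which had 1467 with the C5 and C1 libraries alone. The difference from tacedinaline (11) was called in 24 features by DESeq2, 25 with no filter, 54 with the C5 and C1 libraries alone, 17 with the batch as a block and 2 to 10 without a batch. The paired fit, with batches as a block, moved none of the other counts above by over 1.5 times. Among the gene lists it moved the falling proliferation features from 6 to 11, the rising stress features of the endoplasmic reticulum from 3 to 1 and the falling neuronal features from 2 to 1. The causes were not tested. Features with few counts have bounds only, and counting error limits them.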
